A study of Mus musculus with 2 samples.

Results

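Neutrophil-attracting CXC chemokines and their receptor were followed through the cells of pancreatic tumors in mice. The members were the 6 chemokine genes Cxcl1, Cxcl2, Cxcl3, Cxcl5, Cxcl15 and Ppbp and the 1 receptor gene Cxcr2, taken by symbol from the gene list of the files, 7 of 32285 genes. CXC chemokines with an ELR motif are small secreted proteins that bind CXCR2, a receptor coupled to G proteins on neutrophils, and guide these cells from blood into inflamed tissue. Epithelial cells, fibroblasts and myeloid cells switch the ligand genes on after signals such as IL-1, IL-17 and TNF, largely through NF-κB, and their mRNAs are short-lived. In pancreatic cancer (PC) this axis is best known for bringing neutrophils and related suppressive myeloid cells into the tumor microenvironment (TME).

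KPC cells, a line of mouse PC, were placed in the pancreas of male mice whose age and strain background are not given for the floxed line, and the tumors were harvested after 2 to 3 weeks per the methods. One library came from mice with the label FLOX, in which parts of Slc16a1, the gene of the lactate transporter MCT1, lie between loxP sites, and 1 library came from mice with the label MCT1-KO, from a line with Col1a2-CreERT2, a Cre that tamoxifen activates and that the Col1a2 promoter drives, to remove the floxed part in pancreatic stellate cells (PSCs) and other fibroblasts. The methods give tamoxifen injections and a legend gives tamoxifen or corn oil, so the agent given to the FLOX mice, and whether they carry the Cre, is not certain, and how many animals entered a library is not given. Live cells were not sorted, and the design asks how the TME differs between the 2 genotypes.

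With 1 library per group no difference could be tested, cells are not replicates, and every ratio compares the 2 libraries and not the genotypes. Levels are UMIs (unique molecules) of a gene per 1000000 UMIs of a cell class (CPM), ratios are CPM of MCT1-KO over FLOX, and brackets hold exact 95% intervals that cover counting error only. A gene with at least 50 UMIs in a class counted as past the fold where its ratio was at least 1.5 or at most the inverse and its interval left out 1. In a class, fewer cells that express a gene and fewer transcripts per cell were separated only where shares of cells are given.

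The FLOX and MCT1-KO libraries held 177334432 and 151118092 UMIs, and 8739 and 11689 barcodes were kept as cells with a median of 4069 and 3706 UMIs. Only 59 barcode sequences were kept in both. Cells fell into 23 clusters, of which 21 were named from marker genes, and the members were left out of the genes used to cluster. The 2 unnamed clusters held 17.9% and 26.0% of kept cells, with few UMIs per cell. Slc16a1, the targeted gene, had 57 UMIs in PSC-like cells of FLOX (25.5 CPM, 19.3 to 33) and 113 in MCT1-KO (35.6 CPM, 29.3 to 42.7), where free RNA held 21.4 and 21.0 CPM, so the FLOX level was not above free RNA beyond counting error, the level did not go with the label, and the second library is called the library labelled MCT1-KO. The heat shock genes Hspa1a, Hspa1b, Hsph1, Dnajb1 and Hsp90aa1 were lower in the library labelled MCT1-KO in ductal/tumor-like, myeloid-like, neutrophil-like and PSC-like cells, with ratios from 0.0488 for Hspa1b in myeloid-like cells to 0.763 for Hsp90aa1 in neutrophil-like cells. Their part in the ratios below was not tested.

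The 6 chemokine genes lie within 147 kb of chromosome 5, all on the plus strand, in the order Cxcl5, Ppbp, Cxcl3, Cxcl15, Cxcl1, Cxcl2 (GRCm38, GENCODE vM21). Cxcl1 spans chr5:90891241-90893115, Cxcl2 chr5:90903871-90905938, Cxcl3 chr5:90786103-90789600, Cxcl5 chr5:90759360-90761624, Cxcl15 chr5:90794534-90803067 and Ppbp chr5:90768518-90770063. Cxcr2 lies apart at chr1:74153989-74161246, also on the plus strand. Which build the counts rest on is not stated clearly, but all 7 identifiers matched. Cxcl2 and Cxcl3 are close copies: 184 of the 2109 stretches of 25 bases in Cxcl2 transcripts (8.72%) also occur in Cxcl3, and no other pair of members shared one. Counting could have moved reads between these genes, so Cxcl3 values are uncertain where Cxcl2 is abundant.

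The bases just before the start are shown because those of Cxcl1, Cxcl2 and Cxcl3 are alike, although Cxcl1 was highest in another cell class than Cxcl2 and Cxcl3. Each line gives the 80 bases before the first annotated start, 5′ to 3′ on the plus strand (RefSeq promoter table, GRCm38.p6), with the 11 bases of overlapping NF-κB consensus matches on both strands and the letters ATAAAA in capitals.
Cxcl1, chr5:90891161-90891240: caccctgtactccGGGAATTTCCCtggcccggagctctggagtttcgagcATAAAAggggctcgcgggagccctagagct
Cxcl2, chr5:90903791-90903870: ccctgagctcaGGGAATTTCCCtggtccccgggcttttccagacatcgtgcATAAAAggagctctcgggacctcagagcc
Cxcl3, chr5:90786021-90786100: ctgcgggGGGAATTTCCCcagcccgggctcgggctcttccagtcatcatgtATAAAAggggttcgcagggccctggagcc
Cxcl15, chr5:90794454-90794533: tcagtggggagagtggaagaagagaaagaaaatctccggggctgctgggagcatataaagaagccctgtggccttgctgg

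The NF-κB consensus stood 67, 69 and 73 bases before the end of the stretch in Cxcl1, Cxcl2 and Cxcl3, with the same letters GGGAATTTCC in all 3. Searched on both strands of the 250 bases before the start, these letters occurred in 28 of 32851 promoter windows (0.0852%) and the consensus in 3.90%, and neither was found in the windows of Cxcl15, Ppbp or Cxcr2. The letters ATAAAA, which follow the NF-κB match in the 3 genes, occurred in 16.97% of windows and also in that of Ppbp. TATAAA occurred in 12.4%, among them the windows of Cxcl3, where it overlaps ATAAAA, Cxcl15 and Ppbp but not those of Cxcl1 and Cxcl2, and TGANTCA in 6.75%. The letters GGGAATTTCC were read from the Cxcl1 match, so their presence in Cxcl1 was set by that choice. ATAAAA was chosen after the sequences were seen, and a match is a description of letters. The table matched 6 of 7 members, and Cxcl5 is named only.

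Cxcl1, a ligand made by fibroblasts and epithelium in inflamed tissue, was highest in PSC-like cells of both libraries, although in FLOX acinar-like cells came first without integration (702 CPM) and with cells named one by one (538 CPM against 441 in PSC-like cells). Without integration 49 FLOX cells of the acinar-like class came from a cluster led by Fmo1 and Igf2, and 47 and 15 from clusters led by acinar genes. In PSC-like cells Cxcl1 stood at 669.9 CPM (636 to 705) in FLOX and 1208 CPM (1171 to 1247) in the library labelled MCT1-KO, which was 1.82 times (1.72 to 1.92) and 3.33 times (3.21 to 3.44) the level of ductal/tumor-like cells. After thinning each cell to 1000 UMIs, 33.01% (26.7 to 39.8) of 209 PSC-like cells in FLOX and 42.5% (37.6 to 47.6) of 388 in the other library held a Cxcl1 UMI. The share was 3.52% and 4.57% in T/NK-like cells, lymphocytes that are not a known source, so the signal in PSC-like cells was well above background. Without thinning the shares were 54.7% and 62.5% at a median of 8227.5 and 6920.0 UMIs, against 11.2% and 9.98% in T/NK-like cells at 3082 and 2478 UMIs. PSC-like cells were few, 234 and 424, and most Cxcl1 UMIs of kept cells came from ductal/tumor-like cells, 70.6% and 68.1%.

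Ductal/tumor-like cells had 369 CPM of Cxcl1 in FLOX and 363 in the library labelled MCT1-KO, near the 358 and 333 CPM of free RNA in barcodes with 10 to 100 UMIs. The level was 155 and 280.4 CPM in myeloid-like cells and 211 and 137 CPM in neutrophil-like cells. Endothelial-like cells followed with 94.6 and 148 CPM, T/NK-like cells with 29.1 and 109, and dendritic-like cells with 20.3 and 44.9. B/plasma-like cells had 153 and 27.9 CPM and acinar-like cells 118 and 281 CPM. Classes next to each other in order of level had overlapping intervals for 4 pairs in FLOX, myeloid-like with B/plasma-like, B/plasma-like with acinar-like, acinar-like with endothelial-like, and T/NK-like with dendritic-like cells. In the other library these pairs were acinar-like with myeloid-like, endothelial-like with neutrophil-like, neutrophil-like with T/NK-like, and dendritic-like with B/plasma-like cells. Within ductal/tumor-like cells Cxcl1 was concentrated: the 10% of cells with the most Cxcl1 held 76.2% and 77.7% of its UMIs. The same share was 54.8% and 56.7% for Cxcl2, 48.6% and 46.4% for Cxcl3, 45.2% and 38.0% for Cxcl5 and, in FLOX, 71.0% for Cxcl15. These UMIs were not thinned, so deeper cells weigh more.

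Cxcl2, the ligand known as MIP-2 that activated macrophages and neutrophils release, was highest in neutrophil-like cells by a wide margin. Its 38563 UMIs in FLOX gave 29969 CPM (29671 to 30269.7) and its 11801 UMIs in the library labelled MCT1-KO gave 12870.4 CPM (12639 to 13105). That was 10.7 times (10.6 to 10.9) and 5.22 times (5.12 to 5.32) the level in ductal/tumor-like cells. Nearly every neutrophil-like cell held the transcript, 94.0% of 701 and 91.6% of 439 cells after thinning to 1000 UMIs, against 21.7% and 13.7% of T/NK-like cells. Before thinning, 96.2% of neutrophil-like cells at a median of 1471 UMIs and 91.4% at 1076 UMIs held it, against 48.2% and 28.1% of T/NK-like cells at 3082 and 2478.

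Ductal/tumor-like cells followed with 2794 and 2465 CPM of Cxcl2 and myeloid-like cells with 2484 and 2961 CPM, so the order of these classes was not the same in the 2 libraries. PSC-like cells had 833 and 1373 CPM, which was below the 1667 CPM of free RNA in FLOX and close to the 1327 CPM of free RNA in the other library. T/NK-like cells had 460.4 and 463 CPM, with overlapping intervals. Ductal/tumor-like cells still carried most Cxcl2 UMIs, 52.5% and 67.9% of those in kept cells, while neutrophil-like cells carried 21.2% in FLOX and 5.93% in the library labelled MCT1-KO. Kept cells held unequal parts of all Cxcl2 UMIs, 43.6% in FLOX and 63.0% in the other library. Barcodes with over 5000 genes, which were left out, held 36.5% and 23.5%.

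**Figure D1:**
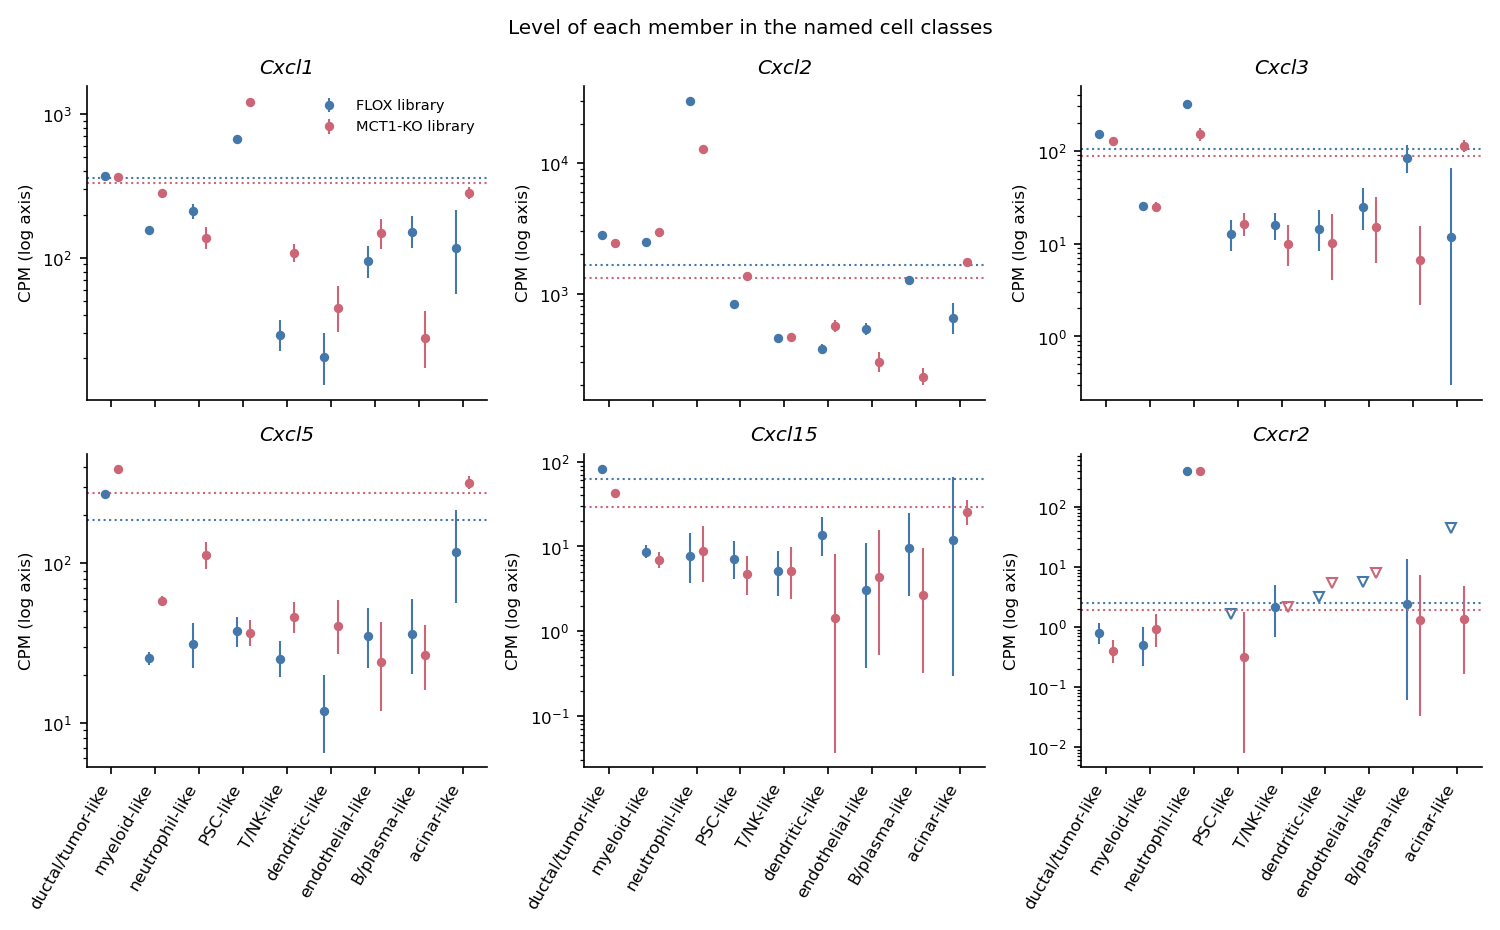
CPM (log axis) of 6 members in the 9 named cell classes, blue for the FLOX library and red for the library labelled MCT1-KO, with 95% Poisson intervals as bars, open triangles for the upper limit where no UMI was found, and dotted lines for free RNA. Cxcl1 was highest in PSC-like cells (669.9 and 1208 CPM), Cxcl2 and Cxcr2 in neutrophil-like cells, and Cxcl5 and Cxcl15 in ductal/tumor-like cells.

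Cxcl3, a near copy of Cxcl2, was shared between neutrophil-like and ductal/tumor-like cells. Neutrophil-like cells had 316 CPM (286 to 348) in FLOX and 149 CPM (125 to 177) in the library labelled MCT1-KO, and ductal/tumor-like cells had 150.1 (146 to 154) and 125 (122 to 128). The level in neutrophil-like cells was 2.10 times (1.90 to 2.33) that of ductal/tumor-like cells in FLOX, and in the other library 1.19 times with an interval of 0.999 to 1.41. The level was 25.6 and 24.8 CPM in myeloid-like and 12.5 and 16.0 CPM in PSC-like cells, below the 104 and 86.4 CPM of free RNA. Of Cxcl3 UMIs in kept cells, 80.1% and 84.6% lay in ductal/tumor-like cells.

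Cxcl5 (LIX), an epithelial ligand of CXCR2, was found mainly in ductal/tumor-like cells, with 273 CPM (267 to 278) in FLOX and 391 CPM (386 to 396) in the library labelled MCT1-KO. This was 10.7 times (9.71 to 11.9) and 6.68 times (6.2 to 7.22) the level of myeloid-like cells, and 7.26 and 10.6 times that of PSC-like cells, which had 37.5 and 36.8 CPM. Thinned to 1000 UMIs, 19.1% (17.6 to 20.7) and 28.5% (27.0 to 30.0) of ductal/tumor-like cells held Cxcl5, against 2.59% and 2.17% of T/NK-like cells. The class held 89.0% and 87.5% of Cxcl5 UMIs of kept cells. Levels in T/NK-like, PSC-like, endothelial-like and B/plasma-like cells lay between 23.9 and 46.3 CPM, all under the 187 and 275 CPM of free RNA. Acinar-like cells, only 48 in FLOX, had 118 CPM there and 321 CPM in 415 cells of the other library, near its free RNA. The order depended on the class names. In the library labelled MCT1-KO acinar-like cells came before ductal/tumor-like cells without an upper limit on genes (305 against 259 CPM). They did so there also at a resolution of 0.4 (303 against 206 CPM), and in FLOX without integration (302 against 268 CPM). With cells named one by one, ductal/tumor-like cells of FLOX had 250 CPM and PSC-like cells 247 CPM.

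Cxcl15, or lungkine, is an ELR chemokine best known from lung epithelium. It followed Cxcl5 at a lower level, with 80.9 CPM (77.9 to 84.0) in ductal/tumor-like cells of FLOX and 43.0 CPM (41.3 to 44.8) in the library labelled MCT1-KO. Myeloid-like cells had 8.71 and 7.004 CPM and PSC-like cells 7.15 and 4.72 CPM, and ductal/tumor-like cells held 88.0% and 87.9% of its UMIs. This order depended on the class names: without an upper limit on genes acinar-like cells were highest in both libraries (58.6 and 37.4 CPM), and with cells named one by one PSC-like cells were (87.6 and 44.7 CPM). That acinar-like class was mostly a cluster of 1593 and 2863 cells led by Rhox5, Prkg2 and Igf2. These genes were also among the leading genes of an unnamed cluster in the main values. After thinning, 6.31% (5.39 to 7.33) and 4.25% (3.62 to 4.95) of ductal/tumor-like cells held it, against 0.556% and 0.217% of T/NK-like cells.

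Ppbp, the platelet chemokine precursor, was nearly absent from these libraries. Over all barcodes it had 70 UMIs in FLOX and 64 in the library labelled MCT1-KO, 25 and 31 of them in kept cells. Of these, 13 and 17 lay in ductal/tumor-like cells (0.379 and 0.310 CPM), 11 and 10 in myeloid-like cells (0.700 and 0.834 CPM) and none in neutrophil-like cells, where a count of 0 allows up to 2.87 and 4.02 CPM. Barcodes with at least 2 platelet marker genes numbered 97 and 84 and held 6 and 1 of the Ppbp UMIs. No ratio between the libraries is drawn from these counts.

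Cxcr2, the receptor, was a gene of neutrophil-like cells. It had 512 UMIs there in FLOX (398 CPM, 364 to 434) and 364 in the library labelled MCT1-KO (397 CPM, 357 to 439.9), and these cells held 92.3% and 90.1% of its UMIs in kept cells. The level was 782 times (394 to 1821) that of myeloid-like cells in FLOX, where 8 UMIs were counted, and 433 times (239 to 875) in the other library, with 11. PSC-like cells had 0 and 1 Cxcr2 UMIs and dendritic-like and endothelial-like cells 0 in both. After thinning, 32.8% (29.3 to 36.4) of neutrophil-like cells in FLOX and 33.5% (29.1 to 38.1) in the other library held a Cxcr2 UMI, and 0 of 540 and 0 of 460 T/NK-like cells did. Without thinning, 42.1% and 35.9% of neutrophil-like cells and 0.703% and 0% of T/NK-like cells held 1, the last with an upper limit of 0.734%, and these shares count cells with a UMI, not cells that express the gene. Cxcr1, the second chemokine receptor of neutrophils, had 10 UMIs in neutrophil-like cells of FLOX and 0 in the library labelled MCT1-KO.

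**Figure D2:**
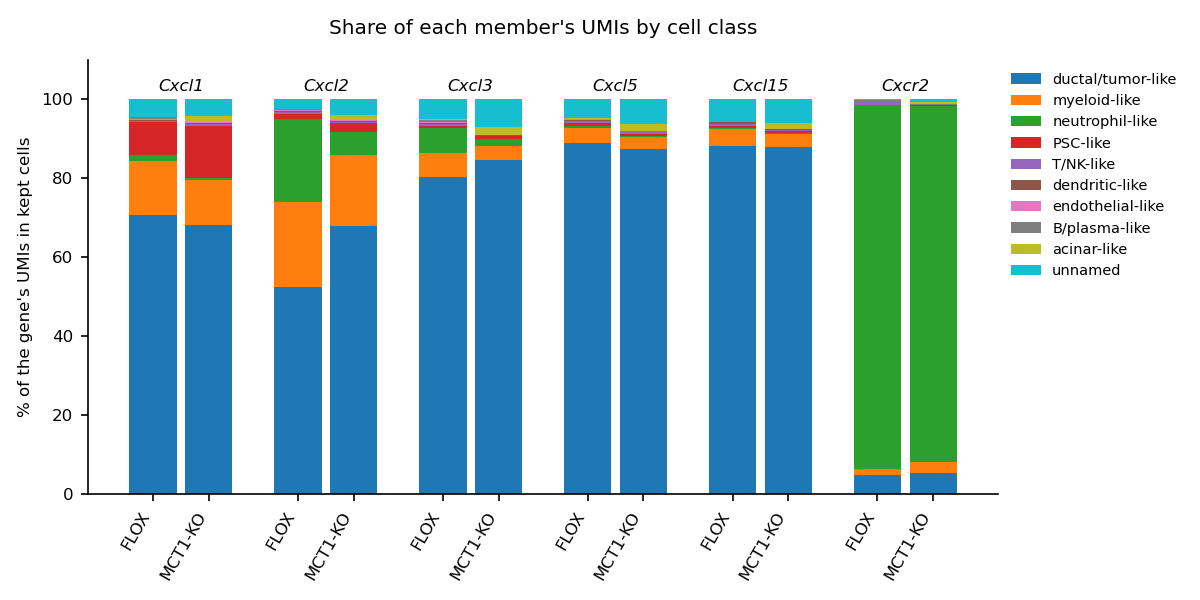
Share of each gene's UMIs in kept cells (y axis, percent) by cell class for 6 members, 1 bar per library and colors for classes. Ductal/tumor-like cells held the most UMIs of each ligand, PSC-like cells held 8.38% and 13.1% of Cxcl1, and neutrophil-like cells held 92.3% and 90.1% of Cxcr2.

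Neutrophil-like cells differed between the libraries in each ligand with enough counts. Cxcl2 was lower in the library labelled MCT1-KO, at a ratio of 0.429 (0.421 to 0.438), and Cxcl3 at 0.474 (0.387 to 0.576). Cxcl1 was at 0.652 (0.524 to 0.809) on 271 and 126 UMIs. Of the 5 members with enough UMIs, these 3 were past the fold downward, as were 8.99% of 4881 genes, and Cxcl5 alone was past it upward (3.61, 2.49 to 5.35, on 40 and 103 UMIs), as were 12.4% of genes. The median ratio over all genes in this class was 1.08. Cxcl1 (211 and 137 CPM) and Cxcl5 (31.1 and 112 CPM) in these cells were under the level of free RNA in both libraries, and acinar markers in the same cells summed to 202 CPM in FLOX and 6451 CPM in the other library with all 11 markers found in both. The 15 myeloid markers summed to 2573 and 1537 CPM with 1 at 0 in each, and the 15 ductal/tumor markers to 624 and 891 CPM with 3 at 0 in each. Their part in the result was not tested.

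Cxcr2 did not go with the ligands. Its ratio in neutrophil-like cells was 0.998 (0.870 to 1.14), and the shares of thinned cells with a UMI had overlapping intervals. Neutrophil-like cells were 8.64% (8.06 to 9.25) of kept cells in FLOX and 6.05% (5.62 to 6.50) in the library labelled MCT1-KO. The 12 neutrophil markers summed to 84524 and 86219 CPM in them, with none at 0.

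In single cells the lower Cxcl2 level was spread over the population. When each neutrophil-like cell was thinned to 500 UMIs, Cxcl2 had a median of 14 UMIs per cell in FLOX (quartiles 6 and 25, highest 71) and 4 in the library labelled MCT1-KO (quartiles 1 and 9, highest 63). Cells with at least 20 Cxcl2 UMIs made up 35.6% (32.2 to 39.2) of 755 and 7.78% (5.91 to 10.01) of 707. The 2 populations overlapped over nearly the whole range.

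**Figure D3:**
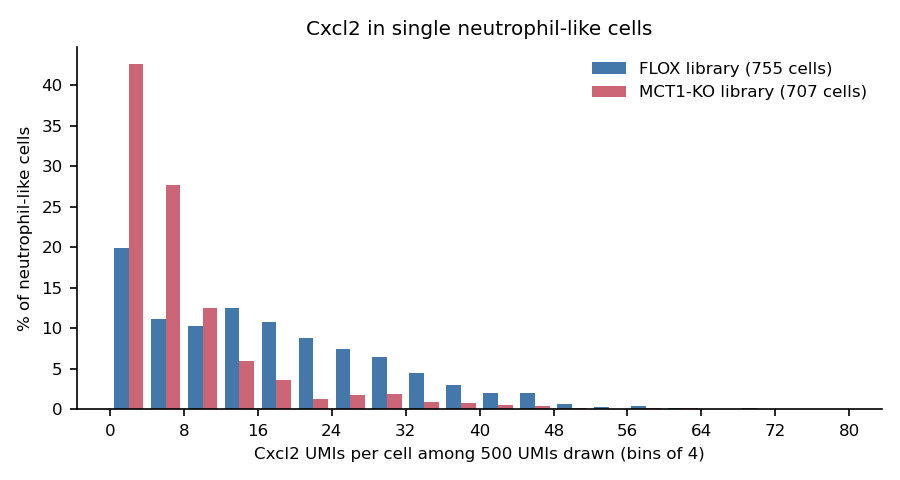
Cxcl2 UMIs per neutrophil-like cell after drawing 500 UMIs of each cell (x axis, bins of 4 UMIs) against the percent of cells (y axis) for 755 cells of FLOX (blue) and 707 of the library labelled MCT1-KO (red). Cells with up to 3 UMIs were 19.9% in FLOX and 42.6% in the other library, and the highest cells had 71 and 63 UMIs.

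In PSC-like cells Cxcl1 and Cxcl2 were higher in the library labelled MCT1-KO, although Cxcl2 was under the level of free RNA in FLOX and close to it in the other library. Cxcl1 had a ratio of 1.80 (1.70 to 1.92) and Cxcl2 of 1.65 (1.56 to 1.74), so 2 of 4 members tested were past the fold upward, as were 8.35% of 8601 genes. None was past it downward, as were 9.93% of genes, with Cxcl3 at 1.28 (0.794 to 2.11) and Cxcl5 at 0.981 (0.735 to 1.31). The share of thinned cells with Cxcl2 did not follow its ratio, at 36.4% (29.8 to 43.3) in FLOX and 35.6% (30.8 to 40.6) in the library labelled MCT1-KO. The 2 PSC-like clusters, 1 of 218 and 400 cells with Col1a2 leading and 1 of 16 and 24 cells with Actg2 and Rgs5 leading, had Cxcl1 ratios of 1.79 (1.69 to 1.91) and 1.87 (1.24 to 2.85). Cxcl2 was at 1.65 in the first and 0.829 (0.519 to 1.32) in the second.

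The PSC-like values depended on how the class was drawn. When cells were assigned one by one from their markers, 921 and 561 cells were PSC-like, Cxcl1 had a ratio of 1.28 and Cxcl2 of 0.698, and without integration of the libraries 1278 and 722 cells were, with 1.82 and 0.738. Without likely doublets (185 and 327 PSC-like cells) Cxcl1 was at 1.96, and Cxcl2 was at 1.39 and no longer past the fold. Marker lists of other cells were also found in PSC-like cells: the 15 myeloid markers summed to 2214 and 2284 CPM, the 11 acinar markers to 113 and 1970 CPM and the 6 adipocyte markers to 0.893 CPM with 4 at 0 and 1013 CPM with 1 at 0, while the 10 PSC markers summed to 25599 and 18903 CPM. Their part in the result was not tested.

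Among myeloid-like cells, Cxcl1 was higher in the library labelled MCT1-KO, with a ratio of 1.81 (1.71 to 1.90), while Cxcl2 was at 1.19 (1.17 to 1.21). With Cxcl5 at 2.30 (2.03 to 2.61), 2 of 5 members were past the fold upward, as were 8.17% of 11460 genes, and none downward, as were 8.32%. Cxcl5 in this class, 25.4 and 58.5 CPM, was far under the 187 and 275 CPM of free RNA, and its ratio was 1.10, 0.760, 1.73 and 2.67 in the 4 clusters. Cxcl1 was also under free RNA. In these cells the 11 acinar markers summed to 119.8 and 2300.2 CPM with none at 0, and the 15 ductal/tumor markers to 487 CPM with 1 at 0 and 716 CPM with none at 0, and their part in the result was not tested. Cxcl3 was at 0.966 (0.829 to 1.13). Clusters of this class differed more than the libraries did. A cluster with Arg1 and Saa3 leading (680 and 671 cells) had 4435 and 6415 CPM of Cxcl2 and 269 and 564 CPM of Cxcl1, whereas the largest cluster, with Ccl8 and C1q genes leading (1249 and 972 cells), had 1229 and 1004 CPM of Cxcl2 and 61.0 and 73.9 CPM of Cxcl1.

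The Cxcl1 ratio was 2.10 (1.95 to 2.25) in the Arg1 cluster and between 1.19 and 1.34 in the 3 other myeloid-like clusters, so the class value rested mainly on that cluster. The even split of these clusters depended on integration: without it an Arg1 and Saa3 cluster held 320 and 1599 cells and a Ccl8 cluster 1655 and 165, so that most cells of each library lay in different clusters, and the class ratio of Cxcl1 was 1.78. Cxcl2 had a ratio of 1.45 in the Arg1 cluster, 0.818 in the C1q cluster and 0.664 in a cluster of 239 and 135 cells, so the libraries did not differ in 1 direction. Cxcl3 was at 0.478 (0.363 to 0.624) in the Arg1 cluster. A cluster of cells with few UMIs (417 and 445 cells) held 155 of the 399 Cxcl5 UMIs of the class in FLOX and 518 of 701 in the other library, and 66 of 137 and 59 of 84 Cxcl15 UMIs. It had 134 and 231 CPM of Cxcl5 and 57.0 and 26.4 CPM of Cxcl15. The other 3 clusters had at most 36.8 CPM of Cxcl5 and 5.61 of Cxcl15.

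In ductal/tumor-like cells Cxcl15 was lower in the library labelled MCT1-KO, with a ratio of 0.532 (0.503 to 0.562), and it was the only one of 5 members past the fold downward, as were 8.19% of 13376 genes. None was past it upward, as were 5.15%, although Cxcl5 came near with 1.43 (1.399 to 1.47). Cxcl1 was at 0.985 (0.963 to 1.01), Cxcl2 at 0.882 (0.875 to 0.890) and Cxcl3 at 0.835 (0.805 to 0.866). Free RNA moved alike, with 0.472 (0.433 to 0.514) for Cxcl15, 1.47 (1.42 to 1.52) for Cxcl5 and 0.931 (0.904 to 0.957) for Cxcl1. The 10 PSC markers in ductal/tumor-like cells summed to 2125 and 1348 CPM and the 11 acinar markers to 76.0 and 785 CPM, with none at 0, and the 7 islet markers to 1.11 CPM with 1 at 0 and 227 CPM with none at 0. Their part in the result was not tested. At a resolution of 0.4, which left 855 and 891 cells under this name, Cxcl5 was at 1.72 and past the fold. Of these cells 818 and 827 lay in a cycling cluster led by Cenpf, while a cluster of 1769 and 2975 cells led by Tiam2 and Kirrel3 went unnamed.

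The 6 ductal/tumor-like clusters set the members apart. A cluster with Il11, Ereg, Hbegf and Inhba among its leading genes, growth factors and cytokines (744 and 635 cells), was highest in Cxcl1 (554 and 803 CPM) and Cxcl2 (3900.0 and 5198 CPM), with Cxcl5 at 279 and 580 CPM. Interferon-response genes such as Ifit1 and Cxcl10 led a cluster of 146 and 182 cells that came next in Cxcl1 and Cxcl2 (519 and 559 CPM, 3206 and 3511 CPM). The largest cluster, with Enpp2 and Fst leading (964 and 1551 cells), was highest in Cxcl15 with 116 and 65.8 CPM. Cycling cells led by Cenpf (403 and 668 cells) had 264 and 282 CPM of Cxcl1 and 118 and 212 CPM of Cxcl5. Cells with Tff1 and Gkn1, genes of mucous epithelium (37 and 64 cells), were lowest in Cxcl1, Cxcl2 and Cxcl5, with 152 and 161, 771 and 301, and 60.8 and 41.7 CPM.

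Cxcl5 and Cxcl15 moved in opposite directions in each of the 5 larger clusters. These clusters also depended on integration, without which ductal/tumor-like clusters held 216 and 1919, 935 and 187, and 199 and 776 cells. With integration the Cxcl5 ratios of the 5 larger clusters ran from 1.26 to 2.08 and the Cxcl15 ratios from 0.499 to 0.696. Cxcl1 did not follow 1 direction: it was at 1.45 (1.37 to 1.54) in the Il11 and Ereg cluster and 0.653 (0.623 to 0.685) in a keratin-rich cluster led by Krt18 and Wfdc2.

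**Figure D4:**
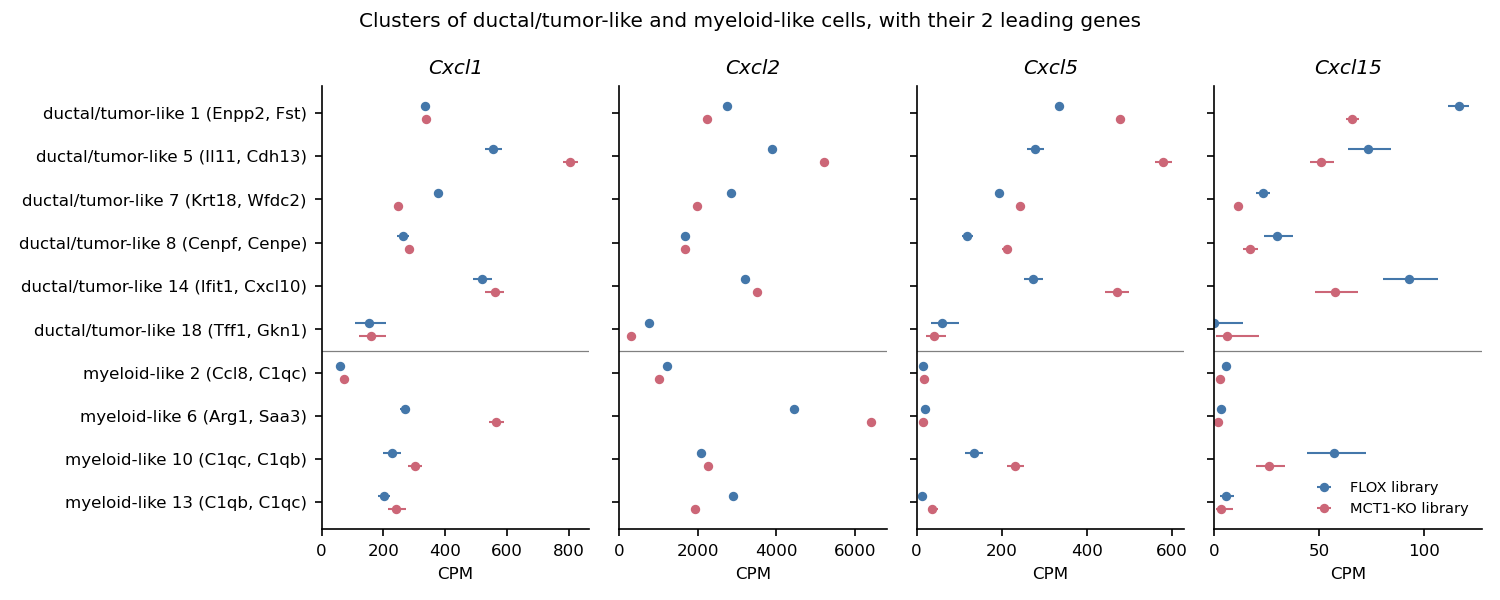
CPM of Cxcl1, Cxcl2, Cxcl5 and Cxcl15 (x axes, linear) in 6 ductal/tumor-like and 4 myeloid-like clusters (rows, with 2 leading genes each), blue for FLOX and red for the library labelled MCT1-KO, bars for 95% Poisson intervals. The Il11 cluster and the Arg1 cluster stand highest in Cxcl1 and Cxcl2 of their class, and Cxcl15 is higher in FLOX in 9 of 10 clusters.

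**Figure D5:**
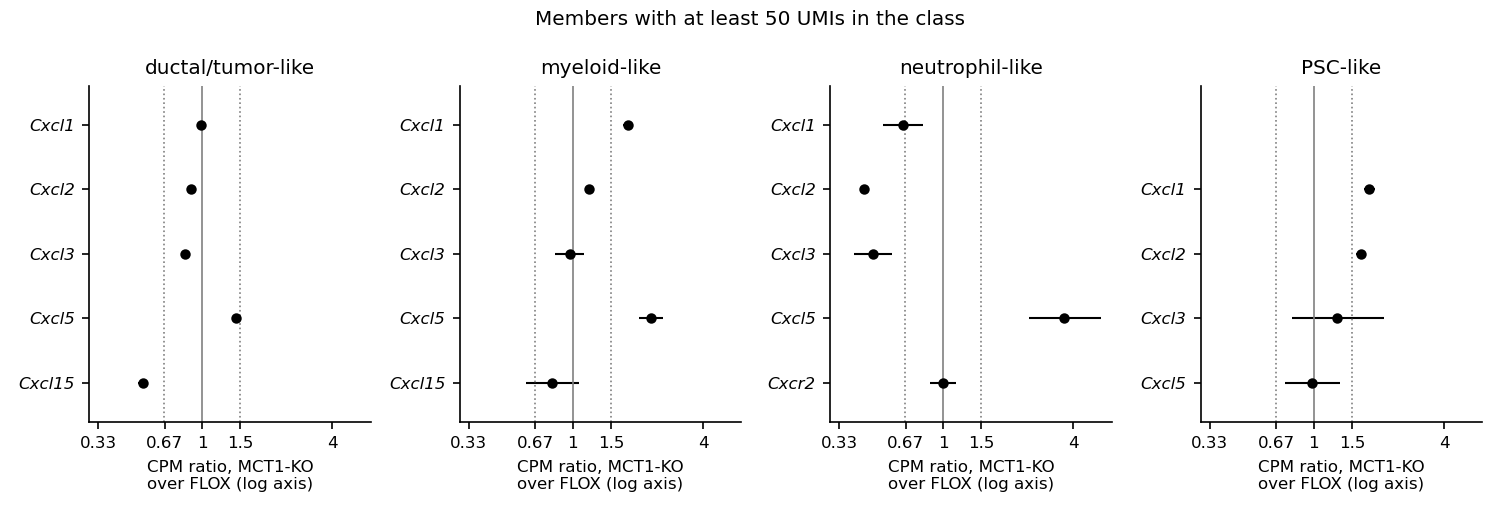
CPM ratio of the library labelled MCT1-KO over FLOX (x axis, log) for members with at least 50 UMIs in 4 cell classes, with 95% counting intervals and dotted lines at the 1.5-fold limits. Cxcl2 lies at 0.429 in neutrophil-like and 1.65 in PSC-like cells, and Cxcr2 at 0.998.

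In smaller classes the ratios varied as well. Cxcl1 was at 3.73 (2.82 to 4.99) in T/NK-like cells on 69 and 188 UMIs, 2.21 (1.26 to 3.93) in dendritic-like and 1.56 (1.09 to 2.24) in endothelial-like cells. Before thinning, the share of T/NK-like cells with a Cxcl1 UMI was 11.2% in FLOX and 9.98% in the library labelled MCT1-KO. After thinning to 1000 UMIs it was 3.52% and 4.57%. Cxcl1 levels in these 3 classes were under the 358 and 333 CPM of free RNA. Cxcl2 was at 0.559 (0.456 to 0.683) in endothelial-like cells. In T/NK-like cells 2 of 4 members were past the fold upward, as were 5.36% of 7624 genes, in dendritic-like cells 1 of 2 upward, as were 7.63%, and none downward, as were 10.1%, and in endothelial-like cells 1 of 2 upward and 1 downward, as were 5.66% and 10.7%. B/plasma-like cells, 67 and 237, had Cxcl1 at 0.183 and Cxcl2 at 0.184, 2 of 2 past the fold downward, as were 6.84% of genes. This class joined a cluster led by Ebf1 and Cd79a (32 and 178 cells) with 1 and 8 Cxcl1 UMIs, too few for a direction, and a cluster led by immunoglobulin genes (35 and 59 cells) with 62 and 13, while Cxcl2 was at 0.159 and 0.135 in them. Acinar-like cells, 48 and 415, had 4 of 4 upward, as were 17.9%, and none downward, as were 2.14%, but the median ratio over all genes there was 1.70, itself past 1.5.

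Ductal/tumor-like, myeloid-like and PSC-like cells that held Cxcl2 more often held Cxcl1, which not every pair of ligands or class showed. Among thinned ductal/tumor-like cells, Cxcl1 was found in 25.6% of cells with and 7.10% of cells without Cxcl2 in FLOX, and in 26.9% and 4.56% in the library labelled MCT1-KO. Among myeloid-like cells these shares were 11.8% and 4.34%, and 19.9% and 3.55%. Among PSC-like cells they were 43.4% and 27.1%, and 51.4% and 37.6%. Cxcl5 in ductal/tumor-like cells was found in 22.5% of cells with and 13.5% without Cxcl2 in FLOX, and in 34.6% and 22.3% in the other library. For Cxcl15 in ductal/tumor-like cells the shares with and without Cxcl2 lay closer, 6.73% and 5.62%, and 4.80% and 3.69%. By Cxcl1, the shares for Cxcl15 in the library labelled MCT1-KO were 3.57% with and 4.38% without. In neutrophil-like cells thinned to 500 UMIs, Cxcl1 was found in 6.23% of cells with and 4.62% without Cxcl2 in FLOX. The shares were 5.35% and 5.50% in the other library.

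Across 37 sums of a cluster in a library with at least 50 cells, the log2 levels of Cxcl5 and Cxcl15 had the highest correlation among members (Pearson's r = 0.841), followed by Cxcl3 with Cxcl5 (0.792) and with Cxcl15 (0.784). Cxcr2 went with Cxcl2 (0.607) and with no other ligand beyond 0.351. These sums share their libraries and free RNA, so the values describe likeness only. Among 11690 genes, those most like Cxcl1 were Timp2 (0.871), Sdc4 and Ier3, and those most like Cxcl2 were Ptgs2, the inducible cyclooxygenase (0.922), Cebpb, a transcription factor of inflammation and myeloid cells, and Mapkapk2, a kinase that stabilizes cytokine mRNAs. Phlda1 (0.897), Ddit3 and Pthlh were most like Cxcl3, Ank (0.960), Foxq1 and Il11 most like Cxcl5, Enpp2 (0.915), Cbr1 and Nr2f1 most like Cxcl15, and Mirt2 (0.941), Stfa2l1 and Stfa1 most like Cxcr2.

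Genes that induce or steer these chemokines were counted from 4 lists with the same fold rule. In neutrophil-like cells 2 of 14 genes of NF-κB and mRNA stability were past the fold downward and 3 upward, with a median ratio of 1.06 against 1.08 over all genes, of which 8.99% were past it downward and 12.4% upward. Zfp36, which destabilizes AU-rich mRNAs, was at 1927 and 541 CPM (ratio 0.281) and Ptgs2 at 1464 and 553 CPM (0.378), while Nfkb1 was at 567 and 985 CPM (1.74). Of inducing cytokines and their receptors 2 of 7 were past it downward, Il1a at 413 and 221 CPM and Il17ra at 156 and 101 CPM, and none upward. Il1b was at 15752 and 12045 CPM. Of receptors and migration genes 2 of 17 were past it in each direction: the granule protease Mmp8 (239 and 626 CPM) and the formyl peptide receptor Fpr1 (249 and 517 CPM) upward, and Ly6g (62.2 and 17.4 CPM) and Rac2 downward. Cxcr4, the receptor for CXCL12, was at 100.3 and 38.2 CPM and was the 1 of 2 further axis genes past the fold.

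In PSC-like cells 3 of 10 inducing cytokine genes were past the fold upward and 1 downward, with a median ratio of 0.985 against 0.979 over all genes, of which 8.35% were past it upward and 9.93% downward. Il1b was at 79.9 and 165 CPM and Tnf at 7.59 and 28.9 CPM, both chiefly myeloid genes, and Lif at 39.3 and 21.7 CPM. Of NF-κB and mRNA stability genes 1 of 15 was past it, Zc3h12a at 23.7 and 35.9 CPM. Of 4 further axis genes, Cxcl12, the fibroblast chemokine that binds CXCR4, was at 113 and 282 CPM (ratio 2.50), Pf4 at 14.7 and 40.3 CPM, under its free RNA level of 129 and 86.1 CPM, and Cxcl14 at 316 and 136 CPM. C5ar1, a complement receptor of myeloid cells, was the 1 of 8 receptor and migration genes past it, at 8.04 and 17.9 CPM. Of these further genes free RNA was measured for Pf4 and Csf3 only, so the others were not held against it.

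In myeloid-like cells 3 of 12 inducing cytokine genes were past the fold upward and none downward, with a median ratio of 1.25 against 1.02 over all genes, of which 8.17% were past it upward and 8.32% downward. These were Il6 (8.52 and 33.4 CPM), Csf3, the neutrophil growth factor (1.21 and 6.34 CPM, under free RNA with 5.40 and 9.29 CPM), and Il1r1 (4.45 and 12.8 CPM), while Il1b was at 1399 and 1534 CPM and Tnf at 170 and 211 CPM. Zfp36 was the 1 of 15 NF-κB and mRNA stability genes past it, downward at 0.552. Of 15 receptor and migration genes 2 were past it downward, Itgal and Rac2, and of 4 axis genes Cxcl14 downward at 0.460.

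In ductal/tumor-like cells Csf3 alone of 12 inducing genes was past the fold upward, at 4.87 and 10.01 CPM (ratio 2.05), where free RNA had 5.40 and 9.29 CPM (1.72, 1.41 to 2.11), and Il1a, Il1b and Tnf were past it downward at 0.495, 0.529 and 0.515. Birc3, Nfkbie and Zfp36 were the 3 of 15 NF-κB and mRNA stability genes past it, all downward. Nfkbia, the inhibitor induced by NF-κB, was at 2530 and 1738 CPM (0.687) and Nfkb1 at 531 and 571 CPM (1.08). Of 12 receptor and migration genes 5 were past it downward, C5ar1, Ptafr, Itgam, Itgal and Rac2, leukocyte genes with at most 6.77 CPM here, and 4 of 5 axis genes were downward. Over all genes in this class 5.15% were past the fold upward and 8.19% downward. Myeloid markers in the same cells summed to 1296 CPM in FLOX and 799.6 CPM in the library labelled MCT1-KO with all 15 found in both, and their part in these counts was not tested.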

How the data were processed

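The files are raw UMI count matrices as deposited by the authors, 1 per library, with no normalization. Per the methods, reads were trimmed with Fastp and counted with SeekOneTools. The submitters' processing notes name GRCh38 and Seurat 4.0.0, but the gene identifiers are mouse, and the build used is therefore uncertain. The labels name a microwell kit and the methods droplets.

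Barcodes with at least 500 UMIs, 200 to 5000 genes and at most 8% mitochondrial counts were kept. The libraries were integrated and clustered with Seurat 5.3.0 (R 4.3.3) at a resolution of 0.8 without the members and pathway genes, and clusters were named from marker lists. Naming limits were set after the clusters were seen, and the members and lists were chosen with earlier results of these data known. UMIs were summed per class and library and divided by class totals. Intervals are exact Poisson, conditional binomial and Clopper-Pearson intervals (scipy 1.17.1) at 95%. A count of 0 was bounded by the upper limit of its exact interval. Shares of cells were compared after thinning each cell to 1000 UMIs, leaving out shallower cells, or to 500 UMIs for the distribution in neutrophil-like cells. Free RNA was read from barcodes with 10 to 100 UMIs. The share it was estimated to take in a class was the lowest that the markers of other cell types allowed. The estimate was 0% where such markers had no UMI, as in neutrophil-like cells of FLOX. The largest of these estimates in a named class was 6.42%, for PSC-like cells in the library labelled MCT1-KO. A class level under that of free RNA is therefore a comparison of levels and not a detection limit. Likely doublets were kept in the main values and left out in an alternative (699 and 935 cells, the top 8% of Scrublet scores, scanpy 1.11.5). Named genes were the members, Slc16a1, genes of the 4 pathway lists with at least 50 UMIs in the class, the leading genes of clusters (Ereg, Hbegf and Inhba fell outside the first 5 and were chosen after their place was seen), and for each member with at least 100 UMIs the 3 genes with the highest Pearson's r of log2(CPM + 1). A gene of the list of receptors and migration genes is not reported here, and neither is its call in myeloid-like cells. Cxcr1 and the 5 heat shock genes fell outside this rule and were named after their values were seen. No library was replicated, so no test was made. In counts simulated as Poisson, for which the intervals are built, the true ratio lay within its interval for 95.4% of 13369 genes in ductal/tumor-like and 96.0% of 4898 genes in neutrophil-like cells. This checks the calculation only, because the spread between cells and between libraries was not simulated. Alternatives changed the limits on UMIs, genes and mitochondrial counts, integration, resolution, doublets, free RNA, totals, the naming of cells and the fold.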

Additional observations from a re-analysis of the deposited data

Results flagged for a closer look

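Barcodes with over 5000 genes were left out of the classes, 2060 in FLOX and 1231 in the library labelled MCT1-KO, and they held Cxcl5 at 279 CPM in the latter. They were flagged because the comparisons of classes in the report leave them out (the alternative without an upper limit on genes takes them in) and Cxcl5 was higher there than in FLOX (211 CPM) beyond counting error. They also held Cxcl1 at 341 and 321 CPM and Cxcl2 at 2295 and 1983 CPM.

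The ratios of Cxcl1 and Cxcl2 between the libraries were flagged because each gene was past the fold upward in some classes and downward in others, among classes with at least 100 cells in both libraries. The difference between classes was not tested, since each group is 1 library. Cxcl1 was past the fold in myeloid-like cells (1.81), neutrophil-like cells (0.652), PSC-like cells (1.80), T/NK-like cells (3.73), dendritic-like cells (2.21) and endothelial-like cells (1.56). Except in PSC-like cells, all of these Cxcl1 levels were under the 358 and 333 CPM of free RNA, the downward one in neutrophil-like cells among them. The share of T/NK-like cells with a Cxcl1 UMI was 11.2% and 9.98% before thinning and 3.52% and 4.57% after thinning to 1000 UMIs. Cxcl2 was past the fold in neutrophil-like cells (0.429), PSC-like cells (1.65) and endothelial-like cells (0.559). Of these classes only PSC-like cells were upward for Cxcl2, and that value was 1.39 without likely doublets, 0.738 without integration and 0.698 with cells named one by one, at a level below free RNA in FLOX and close to it in the library labelled MCT1-KO.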

How the results depend on the processing

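The ratios rest on 1 library per group, and intervals cover counting error only. Whether a ligand under the level of free RNA in a class came from its cells was not tested. No paired analysis was possible because each group is 1 library and the ratios come from no test. Of the alternatives of the main results 69 stayed within the interval (counts within 1.5 times) and 25 moved, and of other values 168 stayed, 101 moved and 2, past the fold at first, changed side of 1. The Cxcl2 ratio in PSC-like cells reversed to 0.738 without integration and to 0.698 with cells named one by one, where the class took in 1278 and 722, and 921 and 561 cells. Without integration 1048 and 310 of these came from a cluster led by Dcn, Enpp2 and Bmp4, and Enpp2 and Bmp4 were among the leading genes of the largest ductal/tumor-like cluster with integration. Without an upper limit on genes, where 489 and 259 of the 740 and 695 PSC-like cells came from a cluster led by histone and cell cycle genes, Cxcl5 was at 1.39 and Cxcl15 at 0.440 in ductal/tumor-like cells, Cxcl1 at 1.71 in myeloid-like and 1.94 in PSC-like cells, and Cxcl2 at 0.396 and Cxcr2 at 0.844 in neutrophil-like cells. Without likely doublets Cxcl2 was at 0.457 in neutrophil-like and Cxcl1 at 1.96 in PSC-like cells, with 1 member past the fold in the latter. Without integration Cxcl5 was at 1.55 and Cxcl15 at 0.662, and at a resolution of 0.4 at 1.72 and 0.567, with 2 members past the fold in ductal/tumor-like cells both times. At a resolution of 0.4 the class was chiefly cycling cells, 818 of 855 in FLOX and 827 of 891 in the other library. With free RNA subtracted Cxcl2 was at 0.442 in neutrophil-like cells. The share estimated as free RNA in this class was 0% in FLOX and 3.18% in the other library. The subtraction therefore changed Cxcl2 and Cxcr2 levels of this class only in the library labelled MCT1-KO. With cells named one by one Cxcl5 was at 1.49 and Cxcl15 at 0.565, Cxcl1 at 1.67 in myeloid-like and 1.28 in PSC-like cells, Cxcl2 at 0.443 in neutrophil-like cells, and in PSC-like cells neither Cxcl1 nor Cxcl2 was past the fold and the 1 member past it was Cxcl15, downward (87.6 and 44.7 CPM). At a 2-fold limit 0 members were past it in ductal/tumor-like and PSC-like cells, 1 in myeloid-like and 3 in neutrophil-like cells. The share of all genes past the fold was not set beside the counts of members in these alternatives, so the counts are not held against a background. The highest class of a member was kept in 97 of 108 cases, with 6 of the losses in Cxcl15, 3 in Cxcl5 and 2 in Cxcl1, and the side of 1 in 156 of 171, where the other changes were in ratios not past the fold, among them Cxcr2 in neutrophil-like cells at 1.06 without likely doublets, 1.03 with free RNA subtracted and 1.01 over totals without mitochondrial, acinar and heat shock genes. The cause of these changes was not tested.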
